A study of Mus musculus with 4 samples.

Results

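Sub-cluster 11 is a small group of hypothalamic nuclei that the study's authors placed among the neurons and left without a cell type name. Its members were taken from the deposited annotation as every nucleus of the main neuronal cluster, Neurons_1, whose sub-cluster label ends with #11. There were 262 of them among the 35756 nuclei of Neurons_1 and the 56386 nuclei kept in the whole series. The series measured gene expression by single-nucleus RNA sequencing in the hypothalamus of adult male mice on a C57/BL6NCr background. Wild-type mice (WT) were compared with mutants called TRα1+m, which are heterozygous for the R384C exchange in the thyroid hormone receptor TRα1. The exchange is carried in the germline, and the labels give no treatment for either genotype and no exact age. Tissue of 3 mice of a genotype was pooled for each library, and each of 2 experimental repeats gave a WT and a TRα1+m library, so n = 2 libraries per genotype and the pool of 3 mice is the replicate. The mutation exchanges an amino acid, so gene counts do not show which allele a library carries and do not check the genotype labels.

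Neurons and oligodendrocytes carry largely separate sets of transcripts. Neurons are recognised by transcripts for synaptic vesicle release, neuronal RNA-binding proteins and the machinery that makes or transports a transmitter, whereas oligodendrocytes are the glia that wrap axons in myelin and are recognised by transcripts of myelin proteins and of the enzymes that make myelin lipids. Thyroid hormone is known to promote the maturation of oligodendrocytes, and a receptor with the R384C exchange binds the hormone poorly and represses its target genes. A nucleus in a droplet is recorded by its barcode and its unique molecular identifiers (UMIs), each standing for a captured transcript.

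The libraries contributed very unequal numbers of nuclei. Sub-cluster 11 held 81 of 9564 Neurons_1 nuclei in WT repeat 1 (0.847%, exact 95% binomial interval 0.673% to 1.05%) and 44 of 8749 in WT repeat 2 (0.503%, 0.366% to 0.675%). It held 133 of 10619 in TRα1+m repeat 1 (1.25%, 1.05% to 1.48%) and 4 of 6824 in TRα1+m repeat 2 (0.0586%, 0.0160% to 0.150%). The intervals cover counting error only. The TRα1+m library of repeat 2 therefore stood apart, and descriptions that need at least 10 nuclei use the other 3 libraries. The mean share was 0.675% ± 0.243 in WT and 0.656% ± 0.844 in TRα1+m (SD, n = 2 each), the 4 values overlapped between genotypes, and the exact two-sided permutation test over libraries gave p = 1, where the smallest p this design allows is 0.333. Within repeats the log2 ratio of the TRα1+m share to the WT share was 0.56 in repeat 1 and -3.10 in repeat 2, so the direction differed between the repeats. The log2 ratio of the mean shares was -0.04, and 0.38 without WT repeat 1, -0.37 without WT repeat 2, -3.53 without TRα1+m repeat 1 and 0.89 without TRα1+m repeat 2. Of all kept nuclei, 618 had a barcode that also occurs in another library, and 3 of these lay in sub-cluster 11.

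Nuclei of sub-cluster 11 were deeper than the other neurons. Their median was 6195 and 8139.5 UMIs in WT repeats 1 and 2, and 5524 and 6466 in TRα1+m repeats 1 and 2. The other Neurons_1 nuclei had medians of 3973, 5214, 3782.5 and 4833.5 in the same order, and oligodendrocytes had medians of 1493, 1811.5, 1516 and 1663. In each library the median of sub-cluster 11 was thus the highest of the 3 groups, and it was 1.53 ± 0.0577 times that of the other neurons (SD over the 3 libraries with at least 10 nuclei). The sum of the medians of the other neurons and of oligodendrocytes was 5466, 7025.5, 5298.5 and 6496.5 UMIs. The number of genes detected followed, with a ratio of 1.31 ± 0.0355 over the same 3 libraries. None of the 262 nuclei had fewer than 2000 UMIs, against 2254 of the 35494 other neurons and 4702 of the 6135 oligodendrocytes. The part of this depth in the results below was addressed only by drawing each nucleus down to 2000 UMIs, and was not tested otherwise.

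**Figure D1:**
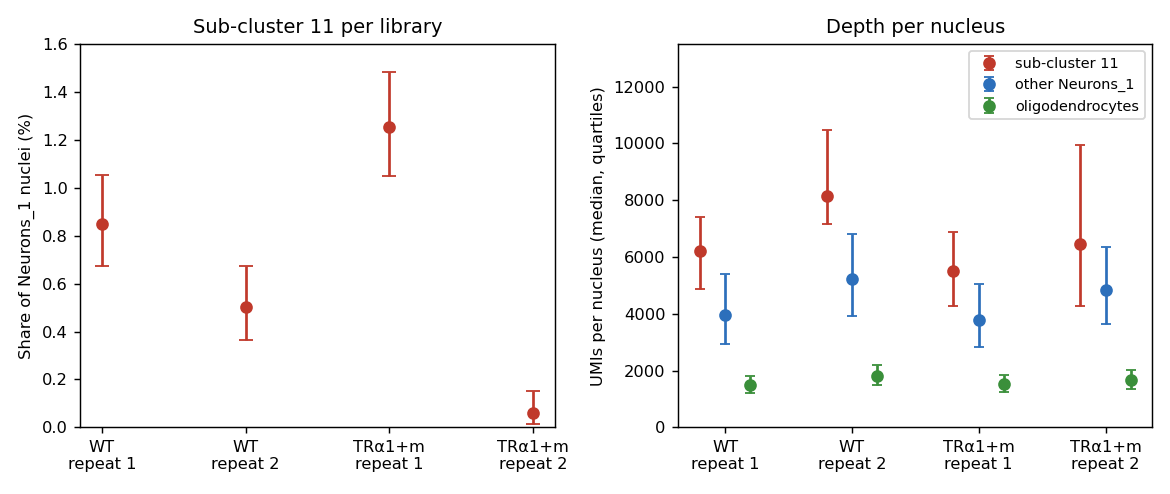
Left, share of Neurons_1 nuclei that belong to sub-cluster 11 in each of the 4 libraries (%, points, with exact 95% binomial intervals as bars). Right, median UMIs per nucleus with quartiles as bars for sub-cluster 11, the other Neurons_1 nuclei and oligodendrocytes, showing 4 nuclei behind the last red point and the highest median in sub-cluster 11 in every library.

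The neuronal label was checked against 7 pan-neuronal genes. Syt1, which encodes the calcium sensor synaptotagmin 1 of synaptic vesicles, was at 1731, 2044, 2105 and 1415 CPM (the UMIs of a gene summed over the nuclei of a group in a library, relative to the sum over all genes and scaled to the usual common total) in WT repeats 1 and 2 and TRα1+m repeats 1 and 2. The other neurons had 2206, 2234, 2287 and 2127 CPM, and oligodendrocytes 285, 211, 324 and 131 CPM. Syt1 was therefore somewhat below the other neurons and far above oligodendrocytes in each library. A Syt1 UMI was found in 97.5%, 95.5% and 98.5% of the nuclei in the 3 larger libraries and in 2 of the 4 nuclei of TRα1+m repeat 2, against 31.9% of all oligodendrocytes. The summed level of the 7 genes, namely Syt1, Snap25, Rbfox3, Stmn2, Nrg3, Celf4 and Elavl4, was 8598 ± 414 CPM in sub-cluster 11, 9213 ± 78.8 CPM in the other neurons and 1444 ± 33.4 CPM in oligodendrocytes (SD, n = 3 libraries). None of them was at 0, and Nrg3, which encodes the growth factor neuregulin 3, had the most UMIs. At least 4 of the 7 genes had a UMI in 250 of the 262 nuclei (95.4%), against 92.3% of the other neurons and 7.25% of oligodendrocytes, which should lack these transcripts. After each nucleus was drawn down to 2000 UMIs the order of the first 2 groups turned, with 71.0% in sub-cluster 11, 75.4% in the other neurons and 7.75% in oligodendrocytes.

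The same nuclei carried oligodendrocyte transcripts. Mog, a protein of the outer myelin surface, was at 235, 178, 145 and 257 CPM in WT repeats 1 and 2 and TRα1+m repeats 1 and 2. Its level was 8.84, 7.82, 6.70 and 5.70 CPM in the other neurons and 730, 1105, 569 and 1150 CPM in oligodendrocytes. Sub-cluster 11 lay between both groups in all 4 libraries without overlap. Mbp, myelin basic protein, was at 556, 501, 551 and 482 CPM in sub-cluster 11 against 228, 193, 243 and 161 CPM in the other neurons. Mag, a myelin protein facing the axon, was at 165, 254, 164 and 96.4 CPM, where the other neurons had 11.2, 11.7, 12.3 and 8.60 CPM.

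All 7 genes of the oligodendrocyte list, among them Mag, Mobp, Mog, Mbp, Cldn11 and St18, were at least 2-fold higher in sub-cluster 11 than in the other neurons in each of the 3 larger libraries. Cldn11, the tight-junction protein of myelin, was at 79.4, 256 and 96.8 CPM in those libraries and at 354 CPM in TRα1+m repeat 2. St18, a zinc-finger transcription factor, was at 825, 488 and 885 CPM and at 547 CPM in the library of 4 nuclei. The summed level of the list was 3646 ± 415 CPM in sub-cluster 11, 523 ± 26.2 CPM in the other neurons and 16280 ± 5620 CPM in oligodendrocytes (SD, n = 3 libraries). No gene of the list was at 0.

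**Figure D2:**
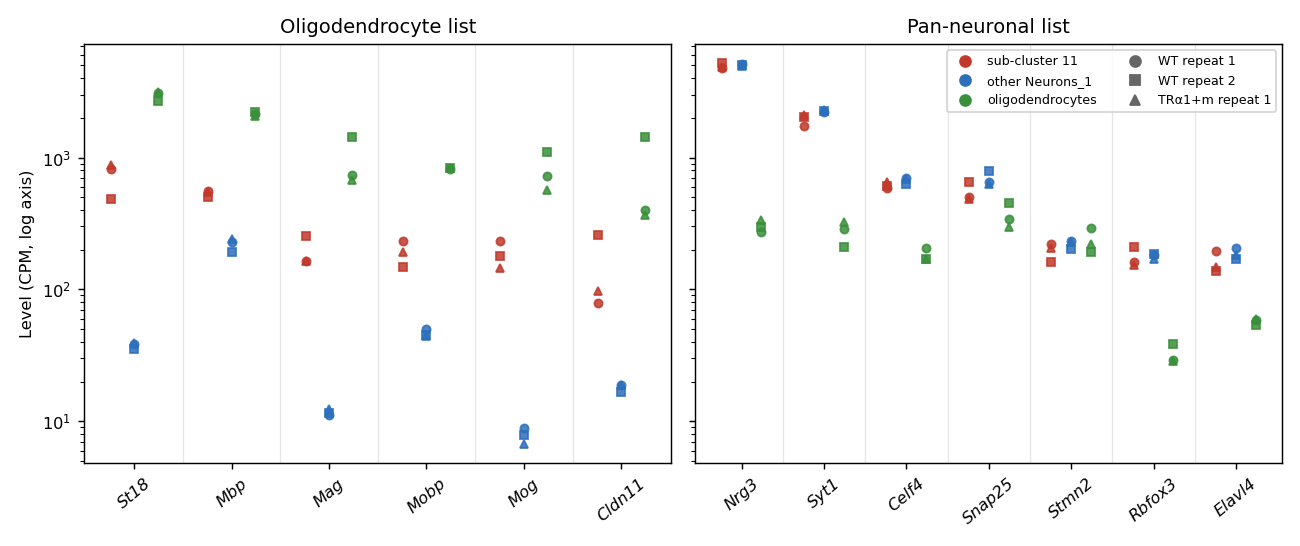
Level (CPM, log axis) of genes of the oligodendrocyte list and of the pan-neuronal list in sub-cluster 11, the other Neurons_1 nuclei and oligodendrocytes, each point a library and its shape the library. For the oligodendrocyte list sub-cluster 11 lies between both groups, with Mog at 145 to 235 CPM in the 3 libraries drawn, and for the pan-neuronal list it lies near the other neurons for most genes.

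Both sets of transcripts met under single barcodes, each counted here as a nucleus. In sub-cluster 11 at least 4 of the 7 oligodendrocyte genes had a UMI in 244 of 262 nuclei (93.1%), and no nucleus had fewer than 2 of them. Among the other neurons 966 of 35494 (2.72%) reached 4 genes, and among oligodendrocytes 95.1%. At least 4 genes of each list together were found in 233 nuclei of sub-cluster 11 (88.9%), in 2.54% of the other neurons and in 7.04% of oligodendrocytes. After each nucleus was drawn down to 2000 UMIs, 128 nuclei of sub-cluster 11 (48.9%) still had at least 4 oligodendrocyte genes, against 0.469% of the other neurons and 99.7% of those oligodendrocytes deep enough to be drawn. At least 4 genes of each list were then found in 86 nuclei of sub-cluster 11 (32.8%), in 0.319% of the other neurons and in 7.61% of these oligodendrocytes. These shares are descriptions, since the clustering used the same genes. The neuronal label thus describes only some of the markers found, and the nuclei are called by their number. Whether droplets held more than 1 nucleus was not tested, and doublet scores of single nuclei were not analysed here.

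The number of oligodendrocyte transcripts per nucleus was near that of an oligodendrocyte. The median nucleus of sub-cluster 11 held 19, 37, 19 and 33 UMIs of the 7 genes in WT repeats 1 and 2 and TRα1+m repeats 1 and 2, and the median oligodendrocyte nucleus 19, 39, 18 and 43. The other neurons had a median of 2 UMIs in each library. The 7 pan-neuronal genes gave 57.3 UMIs per nucleus over the nuclei of sub-cluster 11 in the 3 larger libraries, 43.1 in the other neurons and 2.45 in oligodendrocytes. Across nuclei of a library the Spearman correlation between the UMIs of both lists was 0.16 in WT repeat 1 (81 nuclei), 0.415 in WT repeat 2 (44 nuclei) and 0.387 in TRα1+m repeat 1 (133 nuclei). The points share the depth of the nucleus, with which the oligodendrocyte UMIs correlated at 0.443, 0.47 and 0.608, and the values are given as a description.

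**Figure D3:**
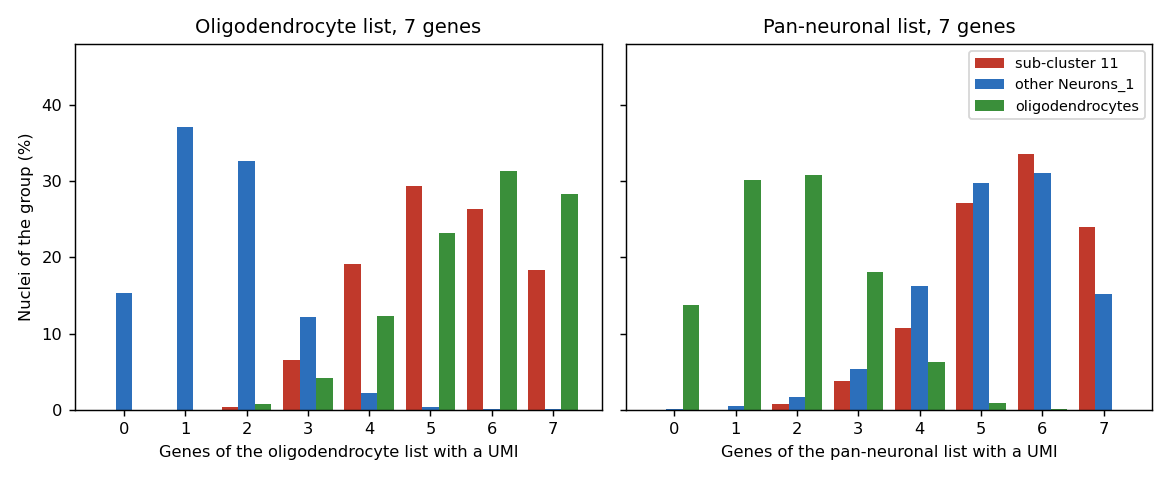
Share of nuclei (%) by the number of genes of the oligodendrocyte list (left) and of the pan-neuronal list (right) with a UMI, for sub-cluster 11 (262 nuclei), the other Neurons_1 nuclei (35494) and oligodendrocytes (6135). Sub-cluster 11 follows the oligodendrocytes on the left, with 93.1% of its nuclei at 4 genes or more, and the other neurons on the right, with 95.4%.

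Across the transcriptome 181 genes led sub-cluster 11, meaning that their CPM with 1 CPM added was at least 2-fold above that of the other Neurons_1 nuclei in each of the 3 larger libraries and that at least 10% of the nuclei had a UMI in each. No test applies to them, since these genes shaped the cluster. After thinning to 2000 UMIs 92 genes led, of which 90 were among the 181. By the annotation 155 of the 181 were protein coding. In 180 of the 181 the level of oligodendrocytes was above that of sub-cluster 11 in each of the 3 libraries, and the same number was at least 2-fold higher in oligodendrocytes than in the other neurons. The exception to both was 4930567K12Rik, a gene with 28.6 CPM in sub-cluster 11, 12.1 CPM in the other neurons and 12.9 CPM in oligodendrocytes. The mean level in sub-cluster 11 was a median of 28.2% of that in oligodendrocytes (quartiles 24.8% and 32.5%), and leaving out that gene the highest was 52.4%. Not a single gene was at least 2-fold above both the other neurons and oligodendrocytes in each library. The summed level of the leading genes was 40811, 37790 and 40285 CPM in the 3 larger libraries and 30122 CPM in TRα1+m repeat 2. In the last library 111 of the 181 were at least 2-fold higher than in its other neurons, and 36 had no UMI, where 3 UMIs stand for 96.4 CPM.

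The 25 genes with the highest ratios had log2 ratios between 3.57 and 5.46 over the 3 libraries. They comprised 15 protein-coding genes and 10 long non-coding RNAs. The highest was A330049N07Rik, a long intergenic RNA on GRCm38 chromosome 10 (72973303 to 73086705, minus strand), at 115, 100 and 73.8 CPM in WT repeats 1 and 2 and TRα1+m repeat 1 and without a UMI in TRα1+m repeat 2. The other neurons had 1.65, 2.01, 0.866 and 1.07 CPM in the 4 libraries, and oligodendrocytes 399, 422, 243 and 278 CPM.

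Enzymes of myelin lipid and of acetate metabolism were among the 25. Aspa, which encodes the aspartoacylase that releases acetate from N-acetylaspartate, was at 236, 193, 253 and 32.1 CPM in sub-cluster 11 and at 9.10, 8.51, 5.83 and 4.41 CPM in the other neurons. Fa2h, the fatty acid 2-hydroxylase that makes hydroxylated myelin lipids, was at 117, 120, 103 and 193 CPM against 4.43, 4.37, 4.24 and 2.98 CPM. The groups did not overlap for either gene in any library. Below the 25, the leading genes also held Ugt8a and Gal3st1, which make galactolipids of myelin.

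Membrane and junction genes formed another part of the 25, with Mog, Mag, Ninj2, Cdh19 and Gjc3, a connexin of glia. Gjc3 was at 138, 85.5, 163 and 64.3 CPM in sub-cluster 11 and at 5.89, 4.84, 6.40 and 4.41 CPM in the other neurons. Prr5l, whose product binds the kinase complex mTORC2, was at 511, 528, 449 and 418 CPM against 18.4, 15.8, 13.4 and 10.5 CPM. It was found in 88.7% of nuclei on average over the 3 larger libraries. Prr5l was also high in the sub-cluster AVasopressin Neurons, at a mean of 370 CPM against 496 CPM in sub-cluster 11. D7Ertd443e was at 98.1 CPM there against 197 CPM in sub-cluster 11. St18, described above, and Anln, which encodes the scaffold protein anillin, completed the better known members. The remaining protein-coding genes were Sec14l5, Fbxw15, D7Ertd443e, Olfml1 and Pstpip2, and the remaining RNAs were 4930420G21Rik, C030029H02Rik, Gm42756, 1700047M11Rik, A230001M10Rik, Gm19500, Gm36855, Gm10863 and Gm13905. Gm13905 overlaps the 5′ part of Prr5l on the opposite strand, and Gm42756 overlaps Fbxw15 on the opposite strand. The strand setting of the counting is not given in the sources used here. Leading genes outside the 25 included Sox10 and Myrf, transcription factors of the oligodendrocyte lineage, and Opalin, Ermn, Mal and Trf, which are known from myelinating cells. At the threshold, Ttll7 was the last gene inside with a lowest log2 ratio of 1.001 and Dscaml1 the first outside with 0.999, and 11 genes lay from 1 to under 1.1 and 13 from 0.9 to under 1.

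No gene met the mirrored rule for low genes, at least 2-fold below the other neurons in each library, with 5 genes after thinning to 2000 UMIs and 4, 9 and 5 genes without WT repeat 1, WT repeat 2 and TRα1+m repeat 1. Among neuropeptides, of which 11 of 32 were detected in at least 10% of nuclei of either group, 9 were below the other neurons in all 3 larger libraries, with a median log2 ratio of -0.91, beside -0.09 over the 6880 genes detected. Of all 6880 genes, 1062 were above and 2148 below the other neurons in all 3. Pmch, the precursor of melanin-concentrating hormone, was at 168, 120 and 547 CPM against 442, 1864 and 576 CPM in the other neurons. Hcrt, the orexin precursor, was at 100, 53.7 and 89.1 CPM against 179, 385 and 176 CPM. Cartpt, the precursor of the satiety peptide CART, was at 43.5, 19.5 and 50.9 CPM against 71.6, 243 and 80.2 CPM. The gap was widest in WT repeat 2 for all 3 genes. In oligodendrocytes Pmch was at 688, 890 and 832 CPM, Hcrt at 404, 309 and 376 CPM and Cartpt at 132, 108 and 114 CPM. In CPM sub-cluster 11 was thus below oligodendrocytes too, whose nuclei were shallower. Per nucleus over the 3 larger libraries the 32 neuropeptides gave 9.07 UMIs in sub-cluster 11 and 5.12 in oligodendrocytes. The other neurons had 15.1. None of the 3 genes had a UMI in TRα1+m repeat 2, where all neuropeptides summed to 12860 CPM against 4049 CPM in its other neurons. Of these, 10737 CPM were Sst, nearly all from a single nucleus described below. The peptide of each of these genes also appears in the label of a named sub-cluster against which sub-cluster 11 was compared. The levels of these genes in those sub-clusters are not given here.

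Lists of markers of hypothalamic nuclei, which share peptide genes with the neuropeptide list, were also lower on average. The 7 genes of lateral hypothalamic neurons summed to 412 ± 227.5 CPM in sub-cluster 11, 1281 ± 929 CPM in the other neurons and 1216 ± 53.1 CPM in oligodendrocytes, with Pmch highest. The sum in sub-cluster 11 and the other neurons was 316 and 683 CPM in WT repeat 1, 249 and 2352 CPM in WT repeat 2 and 672 and 809 CPM in TRα1+m repeat 1, so the difference of the means was less than the spread of the other neurons. The 11 arcuate genes summed to 209 ± 41.4 CPM against 499 ± 257 CPM and 387 ± 94.4 CPM in oligodendrocytes, with Gal highest and Kiss1, the kisspeptin precursor, without a UMI. The 8 genes of paraventricular and magnocellular neurons summed to 478 ± 201 CPM against 994 ± 278 CPM and 1044 ± 453 CPM in oligodendrocytes, with Oxt, the oxytocin precursor, highest (SD, n = 3 libraries). The 8 suprachiasmatic genes summed to 341 ± 75.9 CPM against 750 ± 117 CPM and 576 ± 196 CPM in oligodendrocytes, with Rorb highest. The 7 ventromedial genes, at 90.0 ± 34.2 CPM against 98.8 ± 43.1 CPM, also differed by less than their spread, and oligodendrocytes had 91.4 ± 3.99 CPM. The 7 mammillary genes summed to 121 ± 44.8 CPM, against 169 ± 27.01 CPM in the other neurons and 108 ± 14.5 CPM in oligodendrocytes, and the 4 genes of gonadotropin-releasing hormone neurons to 28.4 ± 9.04 CPM against 37.2 ± 2.51 CPM and 22.1 ± 2.26 CPM. The 8 septal and preoptic genes summed to 29.8 ± 14.96 CPM against 36.8 ± 6.20 CPM and 35.1 ± 5.21 CPM. Over the 3 larger libraries the mean CPM values of sub-cluster 11 were thus below oligodendrocytes, which should lack the genes, for the first 4 of these lists. For the others they lay within 1 SD of sub-cluster 11 from the oligodendrocyte mean. By the smaller SD of oligodendrocytes, the gonadotropin-releasing hormone list was more than 1 SD above them. The septal and preoptic list was more than 1 SD below them. Counted as UMIs per nucleus over the 3 larger libraries, the order of the first 4 lists turned against the shallower oligodendrocytes. The lateral list had 3.09 UMIs in sub-cluster 11 against 2.06, though 2.32 against 2.39 in WT repeat 2. The arcuate list had 1.44 against 0.655, the paraventricular list 3.26 against 1.76 and the suprachiasmatic list 2.31 against 0.974. The other neurons had 6.20, 2.39, 4.70 and 3.53. In TRα1+m repeat 2 the sums in sub-cluster 11, its other neurons and its oligodendrocytes were 32.1, 1769 and 586 CPM for the lateral list, 354, 673 and 175 CPM for the arcuate list, 225, 838 and 295 CPM for the paraventricular list, and 0, 139 and 66.1 CPM for the ventromedial list. In the same order they were 32.1, 705 and 202 CPM for the suprachiasmatic list and 64.3, 204 and 61.8 CPM for the mammillary list. The gonadotropin-releasing hormone list had 32.1, 39.85 and 20.2 CPM, and the septal and preoptic list 32.1, 36.05 and 23.0 CPM. The arcuate, mammillary, gonadotropin-releasing hormone and septal and preoptic lists were thus above oligodendrocytes there, where a UMI stands for 32.1 CPM. No list of a hypothalamic region held a leading gene, apart from the transcription factors below.

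The 11 detected genes encoded by the mitochondrial genome were all below the other neurons in the 3 larger libraries, with a median log2 ratio of -0.51. Their share of all UMIs was 0.662%, 0.901% and 0.576% in sub-cluster 11, 0.942%, 1.17% and 0.835% in the other neurons and 2.31%, 2.45% and 1.97% in oligodendrocytes. By this share sub-cluster 11 was thus the lowest of the 3 groups in these libraries. Per nucleus the 12 listed mitochondrial genes gave 45.3 UMIs in sub-cluster 11, 46.1 in the other neurons and 37.9 in oligodendrocytes. In TRα1+m repeat 2 the share in sub-cluster 11 was 0.778%, near the 0.763% of the other neurons, against 1.79% in oligodendrocytes.

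Markers of other cell types were near, above or below the level of the other neurons, depending on the list. The 8 astrocyte genes summed to 430 ± 64.5 CPM, against 502 ± 106 CPM in the other neurons and 1311 ± 291 CPM in oligodendrocytes, with Slc1a2 highest and none at 0. The 6 genes of oligodendrocyte progenitors summed to 90.8 ± 7.05 CPM against 47.5 ± 2.50 CPM, and Sox10, which mature oligodendrocytes also express, was the single gene of them that led. The 6 genes of microglia and macrophages summed to 93.8 ± 11.99 CPM against 96.3 ± 8.14 CPM. The 9 endothelial and mural genes summed to 22.9 ± 10.5 CPM against 122 ± 55.4 CPM. The 6 vascular leptomeningeal genes summed to 4.82 ± 4.02 CPM against 10.2 ± 1.83 CPM, and the 5 choroid plexus genes to 5.05 ± 3.42 CPM against 10.7 ± 0.90 CPM. The 8 genes of tanycytes and ependymal cells summed to 49.5 ± 38.5 CPM against 62.7 ± 22.8 CPM, and the genes of pituitary cells to 5.16 ± 4.11 CPM against 5.12 ± 2.09 CPM, with 6 of 8 at 0 (SD, n = 3 libraries throughout). The tanycyte and ependymal sums were 35.9 and 19.5 CPM against 70.1 and 37.2 CPM in WT repeats 1 and 2. In TRα1+m repeat 1 they were 92.9 against 80.8 CPM. Col23a1, read by genotype below, was the highest gene of that list in sub-cluster 11. A genotype difference of the list as a whole was not tested. In TRα1+m repeat 2 the endothelial and mural genes stood the other way, at 257 CPM against 149 CPM, where a UMI stands for 32.1 CPM. The genes of tanycytes and ependymal cells also stood above the other neurons in that library, at 96.4 against 40.5 CPM. There the astrocyte genes were at 225 against 313 CPM, those of progenitors at 64.3 against 42.5 CPM, those of microglia at 96.4 against 99.1 CPM, and those of pituitary cells at 0 against 4.02 CPM.

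Families of neuronal genes stood close to the other neurons in the 3 larger libraries. In TRα1+m repeat 2 the summed ion channel genes were at 16330 against 20010 CPM, and the glutamate receptor genes at 14720 against 15310 CPM. Of 53 ion channel genes 44 were detected, with a median log2 ratio of -0.17, none leading, 2 above and 19 below the other neurons in all 3 larger libraries, beside 1062 above, 2148 below and 181 leading among all 6880 genes detected. Of 21 detected glutamate receptor genes the median was -0.09, and Grm3, the metabotropic receptor mGluR3, was the single leading gene, at 397, 364 and 398 CPM against 141, 105 and 149 CPM in the other neurons and 1427, 1411 and 1067 CPM in oligodendrocytes. The 17 detected receptor genes for GABA and glycine had a median of -0.15 and no leading gene. In the list of synaptic adhesion and axon guidance genes 47 of 54 were detected with a median of -0.08, and Cdh20 alone led. Of 24 detected regional transcription factors the leading ones were 3, St18, Meis1 and Nfix, beside 181 of 6880 over all genes, and the median was 0.05. The 9 detected genes of thyroid hormone signalling had a median of -0.18, none led, and 4 were below the other neurons in all 3. Thra was at 110, 120 and 77.7 CPM in sub-cluster 11 and 101, 117 and 80.8 CPM in the other neurons, and at 254, 280 and 200 CPM in oligodendrocytes. In TRα1+m repeat 2 it was at 161, 86.2 and 217 CPM in the 3 groups.

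Transcripts of GABA and of glutamate neurons were both found in sub-cluster 11. By at least 1 UMI of Gad1, Gad2 or Slc32a1, which make or load GABA, or of a vesicular glutamate transporter (Slc17a6, Slc17a7 or Slc17a8), 96 nuclei were GABA only (36.6%), 69 glutamate only (26.3%), 53 both (20.2%) and 44 neither (16.8%). The other neurons were 40.0%, 22.1%, 16.1% and 21.8% in the same order, and oligodendrocytes, which serve as the background, 25.5%, 7.91%, 3.44% and 63.2%. The share with both was 13.6% and 38.6% in WT repeats 1 and 2 and 18.0% in TRα1+m repeat 1, against 14.2%, 21.6% and 12.8% in the other neurons of these libraries. At 2000 UMIs per nucleus it was 4.2%, against 5.01% in the other neurons and 3.28% in oligodendrocytes at the same depth. Per library the thinned share was 3.7% in WT repeat 1, 9.09% in WT repeat 2 and 3.01% in TRα1+m repeat 1, where the other neurons had 4.45%, 6.08% and 4.80% and oligodendrocytes 5.38%, 3.42% and 3.30%. Sub-cluster 11 was thus above both groups in WT repeat 2 and below both in the other 2 libraries, on 3 to 4 nuclei per library. The thinned shares with GABA genes only were 27.9%, 33.3% and 25.4% and those with glutamate genes only 13.7%, 17.5% and 7.47%. With at least 2 UMIs required, at whole depth, 23.7% of the nuclei were GABA only, 21.0% glutamate only, 1.53% both and 53.8% neither, against 22.5%, 16.1%, 1.76% and 59.7% of the other neurons and 2.64%, 0.896%, 0.0163% and 96.4% of the shallower oligodendrocytes. The levels of Gad2 and Slc17a6, at 129 and 139 CPM on average over the 3 larger libraries, lay between those of the GABA and of the glutamate sub-clusters, where Gad2 was at 266 CPM in GABA Neurons and 45.4 to 49.3 CPM in the 3 glutamatergic ones, and Slc17a6 at 51.1 CPM and 235 to 250 CPM.

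The summed profile was most like those of a GABA and of 2 glutamatergic sub-clusters. Over 10275 genes with a mean of at least 10 CPM, Pearson's r of log2(CPM + 1) was 0.943 with GABA Neurons, 0.942 with Glutamatergic Neurons_3 and 0.942 with Glutamatergic Neurons_1, and 0.722 with oligodendrocytes. These are correlations across genes of groups from the same libraries and are given as a description. In those 3 sub-clusters 2.87%, 2.03% and 1.91% of nuclei had at least 4 of the 7 oligodendrocyte genes.

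The other sub-cluster that carried oligodendrocyte transcripts was CART Neurons_2, with 28 nuclei in all and at least 10 in a single library. All of its 28 nuclei had at least 4 of the 7 genes, with a median of 36 UMIs of them, against 21 in sub-cluster 11. The 21 is pooled over libraries, with medians of 19 and 37 in WT repeats 1 and 2 and 19 and 33 in TRα1+m repeats 1 and 2. The 2 sub-clusters are therefore not ranked by it. Among the 14 sub-clusters 52 of the 181 leading genes were highest in sub-cluster 11 and 109 in CART Neurons_2. Mog was at 186 CPM in sub-cluster 11 and at 240.3 CPM in CART Neurons_2, and between 4.62 and 18.7 CPM in the other 12. In the sub-clusters other than these, the share of nuclei with at least 4 of the genes lay between 0.273% in the oxytocin and vasopressin neurons and 5.85% in the MCH neurons. Over all other Neurons_1 nuclei 80 (0.225%) held at least the 21 UMIs of the median nucleus of sub-cluster 11 over all libraries. They were 7 in WT repeat 1 (0.0738%), 48 in WT repeat 2 (0.551%), 13 in TRα1+m repeat 1 (0.124%) and 12 in TRα1+m repeat 2 (0.176%). The pooled cut of 21 UMIs was below the median of sub-cluster 11 in both libraries of repeat 2.

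**Figure D4:**
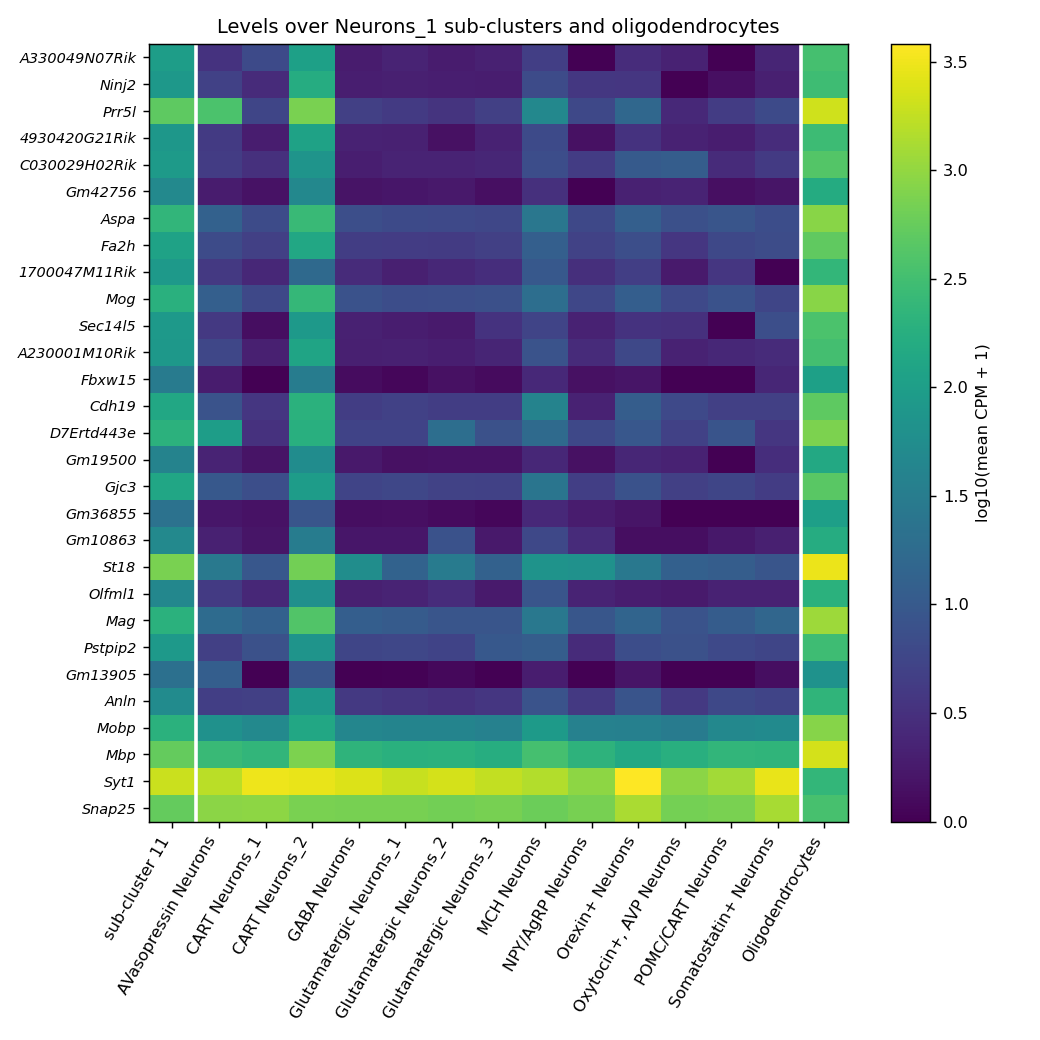
Mean level, as log10(CPM + 1) in colour, of the 25 leading genes and of Mobp, Mbp, Syt1 and Snap25 (rows) in the 14 sub-clusters of Neurons_1 and in oligodendrocytes (columns). Among neurons, sub-cluster 11 and CART Neurons_2 are the columns with high values over nearly all leading genes, for example Mog at 186 and 240.3 CPM.

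To ask whether genotype changed expression in these nuclei, UMIs were summed per library and tested with the quasi-likelihood test of edgeR. Of 7538 genes tested, 0 passed an adjusted p of 0.05 (0% called), and 105 had an unadjusted p under 0.05. DESeq2 also called 0. With the experimental repeat as a block edgeR called 2 genes (0.0265% of those tested), both higher in TRα1+m, namely Col23a1 (adjusted p = 0.00147) and Pnoc (adjusted p = 7.04e-05). The same kind of sums called 0 of 19893 genes in the other neurons, where 196 had an unadjusted p under 0.05, and 13 of 12630 (0.103%) in oligodendrocytes. With the block it called 2 (0.0101%) in the other neurons and 550 (4.35%) in oligodendrocytes, among them all 13. The test of the difference between the genotype effect in sub-cluster 11 and in the other neurons called 0 of 18278 genes, with 620 at an unadjusted p under 0.05. Leaving out TRα1+m repeat 1, so that the 4 nuclei of repeat 2 stand for the genotype, edgeR called 8 genes in sub-cluster 11 and 68 in the test of the difference, and leaving out TRα1+m repeat 2 it called 1 and 6. A UMI in TRα1+m repeat 2 stood for 32.1 CPM, so levels of lowly expressed genes there rest on few UMIs, among them the 2 UMIs of Col23a1 and the single UMI of Neat1.

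The 3 genes with the smallest p in each direction are given as values, since none passed the adjustment in the fit without the block. They were chosen by this comparison, so a separation of their genotypes in sub-cluster 11 is not a further result. Neat1, the architectural RNA of nuclear paraspeckles (chromosome 19, 5824708 to 5845478, minus strand), was at 155 and 171 CPM in the WT repeats. In the TRα1+m repeats it was at 52.2 and 32.1 CPM. Its log2 fold change of TRα1+m over WT was -1.69 ± 0.39 (SE, edgeR adjusted p = 1.00, with the block 0.0967). It was at 602 and 688 against 150 and 251 CPM in oligodendrocytes and at 8.07 and 8.82 against 4.24 and 3.18 CPM in the other neurons, and it is also a leading gene. Hcn2, a pacemaker channel, was at 87.0 and 125 CPM in WT and 29.3 and 64.3 CPM in TRα1+m in sub-cluster 11, at 129 and 303 against 24.4 and 19.8 CPM in oligodendrocytes, and at 39.4 and 57.7 against 36.7 and 58.3 CPM in the other neurons. The TRα1+m values of Hcn2 were thus lower in the first 2 groups and overlapped WT in the other neurons. In sub-cluster 11 its value in TRα1+m repeat 2 is 2 UMIs. 5033421B08Rik, an antisense RNA, was at 37.8 and 31.7 CPM in WT, at 5.09 CPM in TRα1+m repeat 1 and without a UMI in TRα1+m repeat 2.

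In the other direction, Col23a1, a transmembrane collagen gene on chromosome 11 (51289920 to 51583918, plus strand), had 0 and 4 UMIs in the WT repeats and 36 and 2 UMIs in the TRα1+m repeats. These are 0 and 9.77 against 45.8 and 64.3 CPM, and the log2 fold change was 3.37 ± 0.82 without the block (SE, edgeR adjusted p = 1.00) and 3.86 ± 0.76 with it (SE, edgeR adjusted p = 0.00147). The oligodendrocytes had 11.2 and 11.1 against 158 and 169 CPM. In the other neurons it was at 13.3 and 15.9 against 18.3 and 21.4 CPM. 1700042O10Rik, an antisense RNA that lies within Ddc on the opposite strand, was at 77.5 and 24.4 against 139 and 193 CPM in sub-cluster 11 and at 38.6 and 19.2 against 266 and 135 CPM in oligodendrocytes, with 52.8 and 21.0 against 45.9 and 24.6 CPM in the other neurons. 9630013A20Rik, an antisense RNA within Pcdh17, was at 17.0 and 19.5 against 72.6 and 32.1 CPM, where oligodendrocytes had 30.1 and 81.1 against 51.7 and 25.7 CPM. Its genotypes overlapped in oligodendrocytes, and its value in TRα1+m repeat 2 of sub-cluster 11 is a single UMI. The sums of the 3 cell groups come from the same libraries, and their values are therefore set side by side without a test of likeness.

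**Figure D5:**
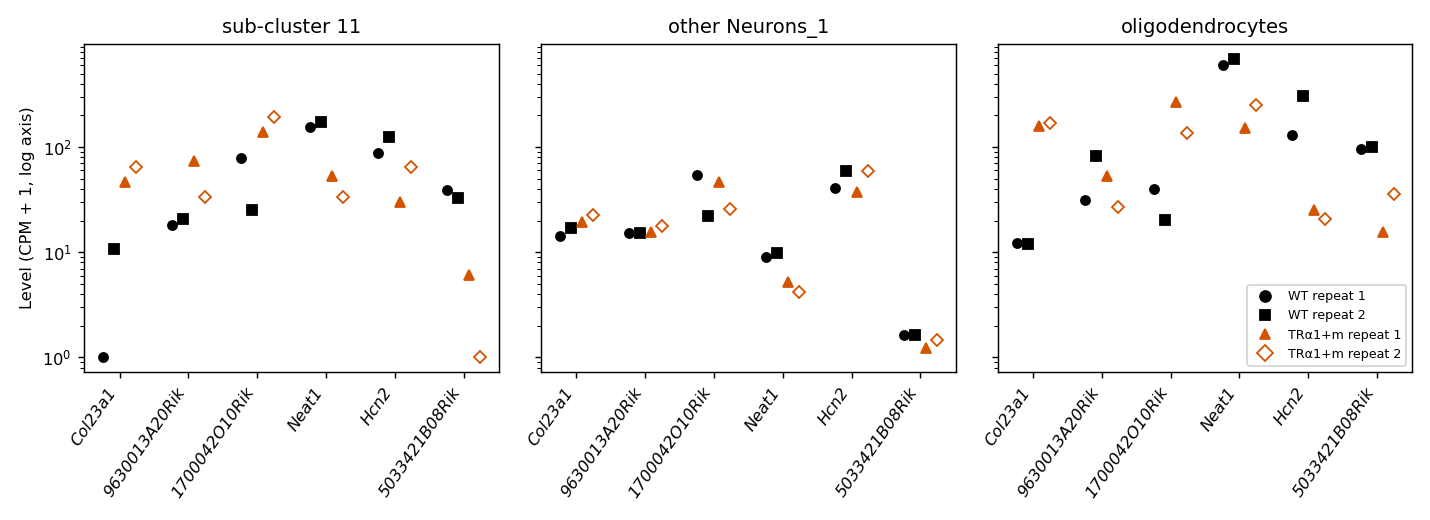
Level (CPM + 1, log axis) per library of the 6 genes with the smallest p in sub-cluster 11, 3 in each direction, in sub-cluster 11, the other Neurons_1 nuclei and oligodendrocytes. Black symbols are WT and orange ones TRα1+m, an open diamond being the library with 4 nuclei. Neat1 lies at 155 and 171 CPM in WT and at 52.2 and 32.1 CPM in TRα1+m in sub-cluster 11.

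The 13 genes called in oligodendrocytes without the block were then read in sub-cluster 11, where 9 passed the filter on low counts and 0 were called without the block. With the block 1 of them was called, Col23a1, whose values are given above. Kcna1, a potassium channel of the axon, was at 83.2 and 51.3 CPM in WT and 24.2 and 32.1 CPM in TRα1+m, and in oligodendrocytes at 207 and 165 against 42.5 and 33.3 CPM. Ddc, the decarboxylase of dopamine and serotonin synthesis, was at 32.2 and 53.7 against 84.0 and 96.4 CPM, and in oligodendrocytes at 48.6 and 47.5 against 234 and 259 CPM. In sub-cluster 11 the values of TRα1+m repeat 2 rest on 1 UMI of Kcna1 and 3 UMIs of Ddc. Tmem117 was at 187 and 244 against 108 and 161 CPM, and in oligodendrocytes at 290 and 370 against 26.6 and 33.3 CPM. Slco3a1, an organic anion transporter, overlapped between genotypes in sub-cluster 11, at 155 and 151 against 130 and 161 CPM, whereas oligodendrocytes had 241 and 264 against 40.7 and 42.0 CPM and the other neurons 143 and 135 against 147 and 144 CPM. The log2 fold changes of the remaining tested genes in sub-cluster 11 were -0.27 ± 0.37 for Dpyd, -1.30 ± 0.55 for Pcolce2, 1.23 ± 0.55 for Ccnd3 and 1.13 ± 0.44 for Fbn2 (SE). Arhgap15, Gm44866, Etv1 and Cacna2d4 did not pass the filter. For the 7 oligodendrocyte list genes the median log2 fold change was -0.23, none was called, and the median over all genes tested was -0.04. For the 7 pan-neuronal genes it was -0.15, and none was called.

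The library of 4 nuclei was read nucleus by nucleus because it weighs on each genotype value. The nuclei had 2805, 4787, 8145 and 15370 UMIs. In this order they held 43, 32, 13 and 34 UMIs of the oligodendrocyte list and 5, 16, 96 and 113 of the pan-neuronal list. The nucleus with 4787 UMIs held 332 of Sst, the somatostatin precursor, 53 of Vgf, 38 of Scg2 and 20 of Pnoc, all of which encode secreted peptides or proteins of secretory granules, whereas the other 3 held at most 1 of Sst and of Vgf. All 20 Pnoc UMIs of the library came from this nucleus. Without TRα1+m repeat 2 the log2 fold change of Pnoc was -0.09, against 2.81 with it, and Pmch was the single gene called, at 1.94 ± 0.28 (SE, edgeR adjusted p = 0.00248). The genotype is then a single library whose spread is taken from the WT libraries. Pmch was at 168 and 120 CPM in WT and at 547 CPM in TRα1+m repeat 1, and had no UMI in the 4 nuclei.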

How the data were processed

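Single-nucleus RNA sequencing was deposited by the authors as raw UMI counts per gene and barcode (whole numbers, not normalised) for 32285 genes in 4 libraries, made with Cell Ranger 5.0.1, introns included, on mm10 (GRCm38). The authors kept nuclei by counts, features, mitochondrial share and a doublet score, and their annotation was used as deposited. Doublets were not called again. Some genes are not reported here. Gene positions come from GENCODE M21 on GRCm38, matched by Ensembl ID, whose version differs from the authors' annotation.

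UMIs of sub-cluster 11, of the other Neurons_1 nuclei and of oligodendrocytes were summed per library (528753, 409473, 785470 and 31107 UMIs in sub-cluster 11) and given as CPM. Ratios within a library had 1 CPM added. Thinning was to 2000 UMIs. Genotype was tested with edgeR 4.0.16 in R 4.3.3 (filterByExpr, TMM, robust quasi-likelihood, two-sided, Benjamini-Hochberg over all genes), and DESeq2 1.42.0 was an alternative. The difference between cell groups was an interaction with the library as a term. The code was tested on simulated data. 

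The named genes were the 25 leading genes with the highest lowest ratio, the 3 smallest p in each direction, and genes of lists that led or were most detected. The oligodendrocyte genes called between genotypes were added after their values were seen, as were the genes named below the 25, Thra, Sst and the genes of the single nuclei. The members and lists were chosen with earlier results of these data known. The study's methods assign a library of each genotype to each repeat. Differences between repeats correlated between genotypes at r = 0.268 over 3966 genes in sub-cluster 11, 0.882 over 4023 genes in the other neurons and 0.786 over 3905 genes in oligodendrocytes. The reported fits had no block, and the fit with the repeat as a block was an alternative, chosen after seeing the data for the other neurons and oligodendrocytes.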

Additional observations from a re-analysis of the deposited data

How the results depend on the processing

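Genotype calls in sub-cluster 11 stayed at 0 with RLE factors, DESeq2, no filter on low counts and the bias-adjusted fit. They were 2 with the replicate block and 0 to 8 when a library was left out, with 8 without TRα1+m repeat 1 and 1 without TRα1+m repeat 2. With the replicate block, added after seeing the data, calls in the other neurons went from 0 to 2 and in oligodendrocytes from 13 to 550. The interaction stayed at 0 with RLE factors, no filter and the bias-adjusted fit, and gave 0 to 68 calls without a library, 68 without TRα1+m repeat 1 and 6 without TRα1+m repeat 2. Without TRα1+m repeat 1 the mutant arm is the library of 4 nuclei, and its spread is then taken from the WT libraries. The log2 ratio of shares, -0.04, was -0.07 of all kept nuclei, -0.01 by edgeR on numbers of nuclei and -0.56 with the replicate block (adjusted p = 0.798), and ran from -3.53 to 0.89 without a library. Leading genes were 181 and lay between 134 and 227 under the other settings, and between 181 and 217 without a library, except 92 (90 of them among the 181) after thinning to 2000 UMIs. The low genes, 0 as reported, were 3 with a UMI in at least 5% of nuclei, 5 after thinning, 8 against the mean over the other sub-clusters and 0 to 9 without a library. The share with both transmitters was 20.2%, and 4.2% after thinning and 1.53% with at least 2 UMIs. The depth ratio of 1.53 lay between 1.51 and 1.56 without a library. The cause of these shifts was not tested. The 4 nuclei of TRα1+m repeat 2 limit its precision, since 3 UMIs stand for 96.4 CPM.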
